A study of Mus musculus with 4 samples.

Results

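The cells described here are mouse cardiac fibroblasts that carried transcripts of Ccl2 and Ccl7, a pair of monocyte-attracting chemokines. They were chosen in 3 steps from a joined droplet RNA table of 39731 cell barcodes. A barcode first needed at least 500 unique molecular identifiers (UMIs, each a counted transcript), at least 250 genes and at most 15% of UMIs from mitochondrial genes, which left 38910 cells. A fibroblast gate then asked for at least 1 UMI of Pdgfra, the gene of platelet-derived growth factor receptor alpha, which fibroblasts carry, at least 5 UMIs of the matrix and fibroblast genes Dcn and Gsn together, and none of Ptprc, Pecam1 or Cdh5, which mark leukocytes and endothelium. Of the 5768 cells in the gate, 288 held at least 3 UMIs of Ccl2 and Ccl7 together and are called chemokine-producing fibroblasts. The 5152 cells of the same gate with no UMI of either gene were the comparison fibroblasts, and the 328 cells with 1 or 2 UMIs lay between. Because Ccl2 and Ccl7 chose the cells, their own levels are given as a description only.

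The study collected interstitial cells, the cells of the heart other than cardiomyocytes, from mice 1 month after stroke or a control condition. The labels list 4 samples, 2 from control and 2 from stroke hearts. Both groups had the strain Ccr2creERT2-Ai14, in which an inducible Cre recombinase is produced where the chemokine receptor gene Ccr2 is active and switches on a tdTomato reporter. Hearts were digested with enzymes, red cells were lysed, dead cells were removed on magnetic beads, and live nucleated cells were sorted before 3′ droplet libraries were made, per the labels' protocols. The joined table numbers its barcodes 1 to 4, called libraries 1 to 4 here, and no source used here says which of them came from stroke hearts. No stroke and control values were therefore compared, and the 4 libraries serve only to show whether a difference between cells recurred. All intervals are exact 95% intervals of the counts and hold no spread between animals. Where a count was 0, the limit given is that of 3 counts in the same number of cells.

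CCL2 and CCL7 are small secreted proteins that bind CCR2 on monocytes and draw them out of the bone marrow and into tissue. Fibroblasts make them after signals such as interleukin 1 or tumour necrosis factor, which release the transcription factor NF-kB from its inhibitor IkB-alpha, the product of Nfkbia. NF-kB then turns on Nfkbia itself, chemokines such as Cxcl1, adhesion molecules such as Icam1, and further members of its own pathway. In mm10 coordinates, Ccl2 lies at chr11:82035577-82037452 and Ccl7 at chr11:82045712-82047525, in a cluster that also holds Ccl11, Ccl12 and Ccl8.

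The 6 promoter sequences below come from the 11 genes higher in the chemokine-producing fibroblasts whose RefSeq promoters hold letters matching the NF-kB consensus. They were picked by hand, and Casp4, Basp1, Hivep2, Col27a1 and 1500009L16Rik, which also held a match, are not shown. Each run gives the 160 bases before the annotated start of the gene, 5′ to 3′ on the gene's own strand, in build GRCm38.p6, the assembly behind mm10. Capitals mark the match to the consensus on either strand.
Nfkbia (chr12:55492648-55492807, minus strand): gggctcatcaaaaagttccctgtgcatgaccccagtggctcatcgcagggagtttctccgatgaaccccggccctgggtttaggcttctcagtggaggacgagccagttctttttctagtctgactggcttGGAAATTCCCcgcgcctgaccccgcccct
Cxcl1 (chr5:90891085-90891244, plus strand): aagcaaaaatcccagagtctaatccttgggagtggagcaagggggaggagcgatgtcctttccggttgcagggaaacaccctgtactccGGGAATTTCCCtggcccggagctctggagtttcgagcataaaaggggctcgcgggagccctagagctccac
Irf1 (chr11:53769854-53770013, plus strand): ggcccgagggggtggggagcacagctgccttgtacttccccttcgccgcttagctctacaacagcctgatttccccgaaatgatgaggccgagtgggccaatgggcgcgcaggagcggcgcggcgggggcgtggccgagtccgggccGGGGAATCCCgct
Traf3 (chr12:111166210-111166369, plus strand): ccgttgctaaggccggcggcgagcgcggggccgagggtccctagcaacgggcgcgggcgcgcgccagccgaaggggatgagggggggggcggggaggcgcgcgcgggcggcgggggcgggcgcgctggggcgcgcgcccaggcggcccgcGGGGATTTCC
Sod2 (chr17:13007679-13007838, plus strand): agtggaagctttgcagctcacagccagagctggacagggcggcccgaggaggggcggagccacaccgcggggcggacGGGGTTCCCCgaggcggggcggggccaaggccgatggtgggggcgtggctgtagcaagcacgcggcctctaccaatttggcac
Csf1 (chr3:107760470-107760629, minus strand): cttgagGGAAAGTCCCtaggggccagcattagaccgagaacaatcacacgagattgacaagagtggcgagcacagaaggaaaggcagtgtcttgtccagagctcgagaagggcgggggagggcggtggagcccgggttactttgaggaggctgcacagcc
The match ended 20 bases before the start of Nfkbia and 4 bases before the start of Irf1, which encodes an interferon regulatory factor. In Cxcl1, 2 overlapping matches covered positions -71 to -61. Those of Traf3, an adaptor of tumour necrosis factor receptors, Sod2, the mitochondrial superoxide dismutase, and Csf1, the macrophage growth factor, began at -10, -83 and -154. Over windows from 250 bases before to 50 after the start, 11 of the 45 higher genes with a RefSeq promoter entry held a match (24.4%). The share was 6.52% for the lower genes (3 of 46), 5.36% for all genes tested (159 of 2964) and 4.35% for all 27025 promoters in the table. The AP-1 letters TGANTCA, read on both strands in the same windows, were in 4 of the 45 higher genes (8.89%), 4.79% of the genes tested and 7.93% of all promoters. Birc3, Icam1 and Tnfaip2, also higher, held no NF-kB match in these windows. A match describes the letters and not a bound site, and the genes were picked from the same cells.

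Chemokine-producing fibroblasts made up 4.99% of the fibroblast gate (4.45 to 5.59%) and 0.740% of all cells that passed the filter. They numbered 130 of 2412 gated cells in library 1, 65 of 1390 in library 2, 26 of 513 in library 3 and 67 of 1453 in library 4. The shares were 5.39%, 4.68%, 5.07% and 4.61%, and the intervals of all 4 libraries overlapped. Their median depth was 7620.5 UMIs against 6555.5 in the comparison fibroblasts, and it was higher in each library. Mitochondrial UMIs took 2.37% of their counts against 2.58%. Thinned to 2000 UMIs each, the cells had a median of 1153 detected genes, against 1143 in the comparison fibroblasts, of which 74 were too shallow to thin. Across libraries, 161 barcode sequences occurred in 2 libraries, and none of the 288 cells carried one of them. A doublet caller marked 1 of the 288 cells and 40 of the gate.

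**Figure D1:**
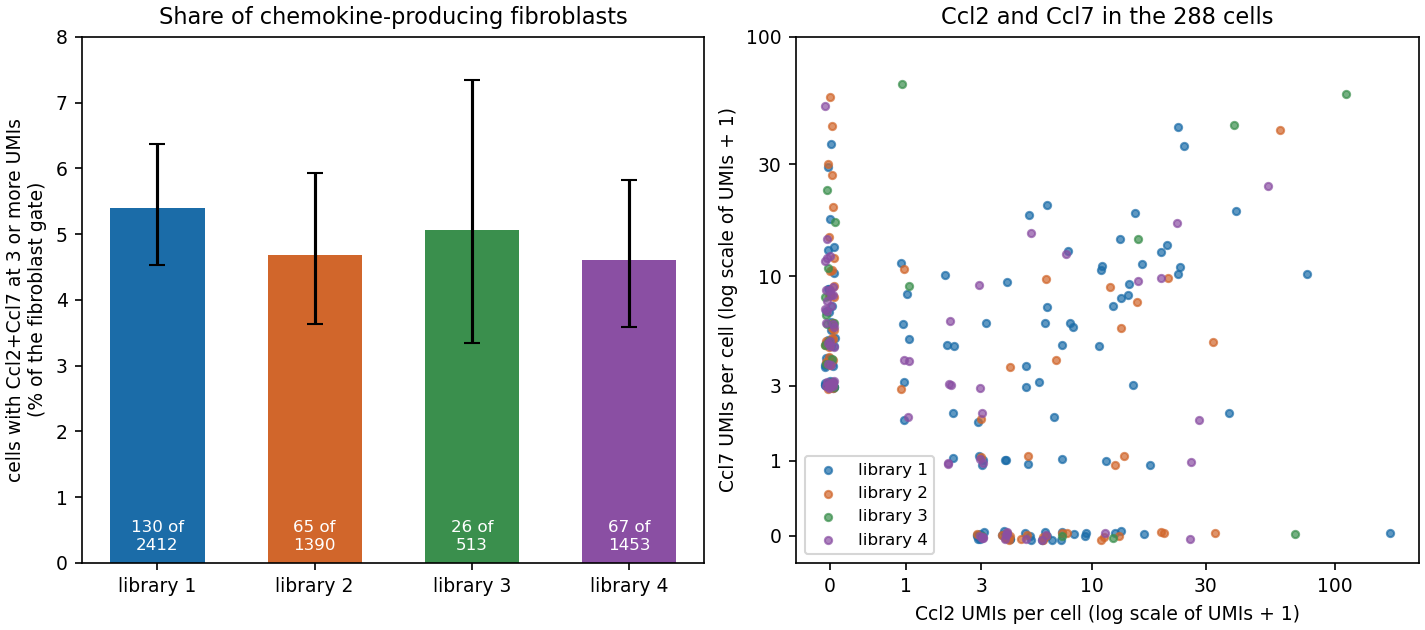
Left, share of the fibroblast gate with at least 3 UMIs of Ccl2 and Ccl7 (percent, bars from 0, exact 95% counting intervals) in each library. Right, UMIs of Ccl2 (horizontal) and Ccl7 (vertical) in each of the 288 cells on log scales of UMIs + 1, with a small random shift so that points do not hide each other. The shares lie between 4.61 and 5.39% with overlapping intervals, and 69 cells sit on the horizontal axis and 122 on the vertical one, with UMIs of only 1 chemokine.

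The chemokine counts were uneven among the 288 cells. Their sum had a median of 6 UMIs and a maximum of 170, and the 95 cells with 10 or more held 74.1% of the 3743 chemokine UMIs. Both genes were seen in 97 cells (33.7%), Ccl2 alone in 69 and Ccl7 alone in 122. Ccl2 stood at 907, 666, 1120 and 633 UMIs per 1000000 UMIs (CPM) in libraries 1 to 4, and Ccl7 at 698, 766, 1365 and 846 CPM. Library 3, with the fewest cells, had the highest level of both genes. At the edge of the rule, 92 cells held exactly 2 chemokine UMIs at a median depth of 6933.5, and 50 cells held exactly 3 at a median depth of 7363.

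Among the 7 gated cell populations compared, the macrophage gate had the highest level of both chemokines and the fibroblast gate the next. Ccl2 was at 199 CPM in 1112 macrophages (cells with complement C1q transcripts), 50.7 CPM in the fibroblast gate and 8.91 CPM in 18976 endothelial cells. Ccl7 was at 117, 54.4 and 3.04 CPM in the same order. The sum reached 3 UMIs in 203 macrophages (18.3%) and 40 endothelial cells (0.211%). Among cells with at least 5000 UMIs the shares were 26.2% of macrophages, 5.58% of the fibroblast gate and 1.74% of endothelial cells. The chemokine-producing fibroblasts held 33.0% of all Ccl2 UMIs and 41.7% of all Ccl7 UMIs of the cells that passed the filter.

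The remaining gated populations held few UMIs of these chemokines. Whether those UMIs came from the cells themselves was not tested. At least 1 UMI of either gene was found in 2 of 282 mesothelial cells (0.709%, 0.0860 to 2.54%) at a median depth of 6818 UMIs. In the fibroblast gate the share was 10.7% (9.89 to 11.5%) at a median depth of 6626.5. None of the mesothelial cells reached the sum of 3, which allows a share of up to 1.06% by the limit of 3 counts. Mural cells, neutrophils and B cells had Ccl2 between 2.08 and 4.15 CPM.

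**Figure D2:**
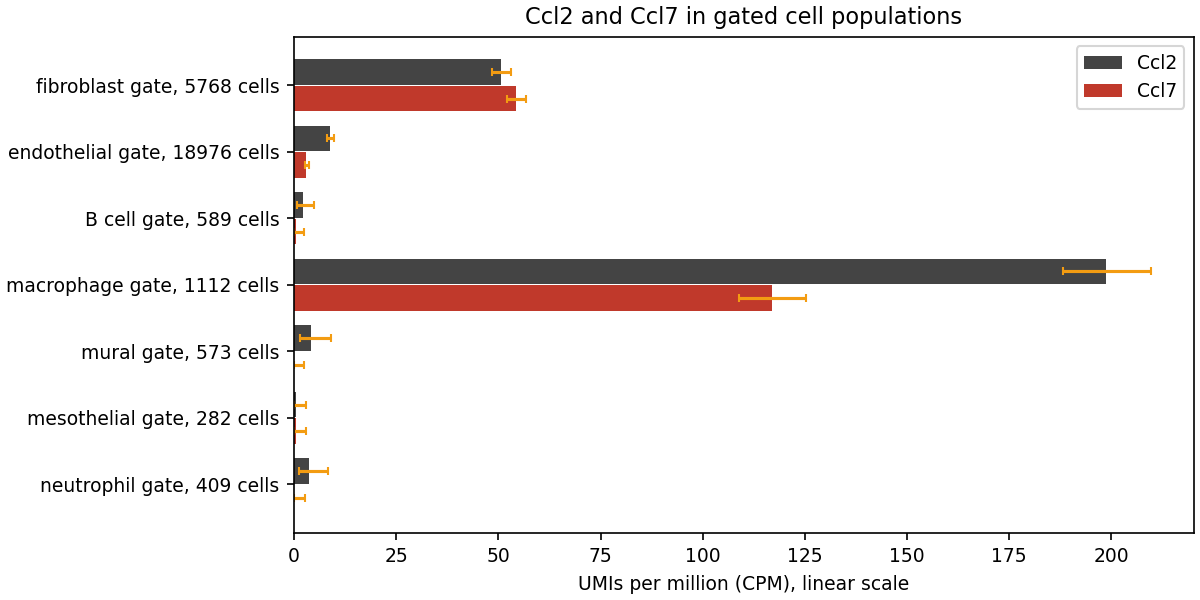
Level of Ccl2 (grey) and Ccl7 (red) in CPM on a linear axis from 0, in populations gated by marker transcripts, with the number of cells beside each name and exact 95% Poisson intervals in orange. Macrophages stand highest at 199 and 117 CPM and the fibroblast gate next at 50.7 and 54.4 CPM, while the other gates stay below 10 CPM.

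Gsta3, Atf5, Lgals1 and Serpinf1 were also proposed as markers of these cells. None of the 4 differed by 1.5-fold. Gsta3, a glutathione transferase, was at 213 CPM against 192 in the comparison fibroblasts, a ratio of 1.11 (1.01 to 1.22). Atf5, a stress-response transcription factor, was at 242 against 192 CPM. Lgals1, which encodes galectin 1, was at 2339.9 against 1753.9 CPM, a ratio of 1.33 that ranged from 1.27 to 1.39 over the libraries. Serpinf1, which encodes pigment epithelium-derived factor, was at 356 against 410 CPM and below the comparison fibroblasts in each library. The cells were thus set apart by Ccl2 and Ccl7, which chose them, and not by these 4 genes under the size rule used here.

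Genes were counted as higher or lower by a fixed size rule. A gene was tested if it reached 50 CPM in either set of cells, and it was called if the pooled ratio passed 1.5-fold and all 4 libraries lay on the same side of 1. Of 3744 genes tested, 67 were higher (1.79%) and 69 were lower (1.84%) in the chemokine-producing fibroblasts. Of the 67, 35 reached 50 CPM in the chemokine-producing cells alone, and of the 69, 42 did so in the comparison fibroblasts alone. At 2-fold, 15 were higher and 22 lower. The median ratio over all genes tested was 1.03. Another 11 genes above and 5 below the 1.5-fold limit failed because 1 or more libraries lay on the other side.

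NF-kB factors and targets stood above the comparison fibroblasts as a group. Of the 20 genes on the list, 12 reached 50 CPM, 8 of these were higher and none lower. Of the 6 that reached 50 CPM in the comparison fibroblasts themselves, 4 were higher, beside 0.919% of all 3481 such genes. The ratio was above 1 for every gene of the list, including the 8 below 50 CPM, and above 1 for 59.7% of all genes tested. Summed, the list stood at 2069.5 CPM against 1095.3 CPM, a ratio of 1.89 (1.83 to 1.95), and at 1.74, 1.77, 2.04 and 2.29 in libraries 1 to 4. The median ratio of its 12 tested genes was 1.59, against 1.03 over all genes.

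Nfkbia, which encodes the NF-kB inhibitor IkB-alpha, stood at 474, 416, 375 and 444 CPM in the chemokine-producing fibroblasts of libraries 1 to 4. In the comparison fibroblasts it stood at 165, 147, 109 and 126 CPM, so the 2 sets did not overlap. Its ratio was 3.04 (2.84 to 3.25). A UMI of Nfkbia was found in 81.9% of the chemokine-producing cells and 51.0% of the comparison cells, and in 50.7% and 23.5% after thinning to 2000 UMIs. Relb, a subunit of the non-canonical NF-kB pathway, was at 86.9, 84.3, 89.2 and 101 CPM against 34.9, 32.2, 21.7 and 28.7 CPM. The levels of the 4 libraries were close within each set and apart between the sets, and the ratio was 2.84 (2.43 to 3.30).

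Other genes of the NF-kB list followed. Birc3, which encodes an inhibitor of apoptosis that acts in tumour necrosis factor signalling, was at 66.3 against 26.8 CPM, a ratio of 2.47. Its library ratios ran from 2.17 to 2.99. Tnfaip2 was at 136 against 62.2 CPM, a ratio of 2.19, and Irf1 at 112 against 47.7 CPM, a ratio of 2.35. Nfkbiz, which encodes a nuclear IkB protein, Sod2 and the transcription factor gene Cebpd had ratios of 1.57, 1.60 and 1.53. These 3 calls depended on single libraries: without library 4, Nfkbiz was at 1.40 and Sod2 at 1.47, and without library 3, Cebpd was at 1.45. Nfkb1, which encodes the precursor of the p50 subunit, had a ratio of 1.43 and was not called. Rela, which encodes the p65 subunit, had a pooled ratio of 1.58 but 0.923 in library 3, and was not called.

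Among the genes below 50 CPM, Tnfaip3, which encodes the A20 protein that ends NF-kB signalling, was at 17.3 against 4.45 CPM. Nfkbie, another inhibitor gene, was at 28.2 against 5.14 CPM, and Nfkb2 at 38.6 against 13.7 CPM. Traf3, an adaptor that holds the non-canonical pathway in check, was outside the list. It was called at a ratio of 1.88 (1.59 to 2.20).

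Levels of these genes were read over bins of the chemokine count, the same count that chose the cells, and not all rose steadily. Nfkbia stood at 146 CPM in cells with no chemokine UMI, 195 with 1, 198 with 2, 288 with 3 to 5, 367 with 6 to 9 and 684 with 10 or more. Relb went from 31.5 CPM through 47.1, 66.4, 60.1 and 74.1 to 135 CPM over the same bins. Icam1 stayed between 40.9 and 64.2 CPM below 10 chemokine UMIs and reached 162 CPM above. Birc3 was at 64.9 CPM with 2 chemokine UMIs and 38.3 CPM with 3 to 5, and Tnfaip2 at 109 and 92.2 CPM. The NF-kB list as a whole was at 1095.3, 1273.6, 1491.3, 1631.1, 1657.2 and 2874.5 CPM. The cells below the limit of 3 thus lay between the 2 sets in Nfkbia and in the list. The bins differ in median depth, from 6555.5 UMIs with none to 8309 with 10 or more.

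**Figure D3:**
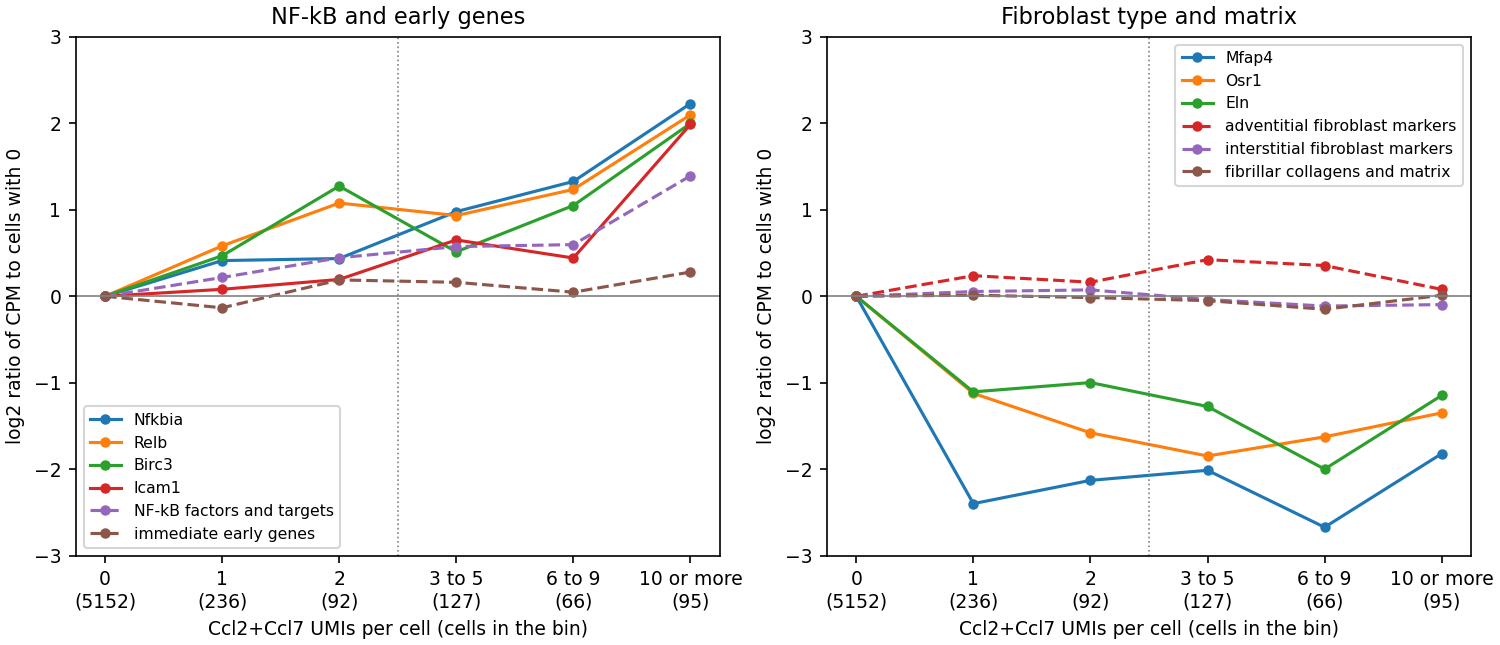
Level relative to the cells with no chemokine UMI (vertical, log2 ratio of CPM) over bins of the Ccl2 and Ccl7 sum per cell (horizontal, number of cells in brackets), with the dotted line at the limit of 3 UMIs. Left, NF-kB genes, their list and the immediate early list, where Nfkbia goes from 146 to 684 CPM. Right, matrix and fibroblast-type genes, where Mfap4 is at 62.6 CPM with 1 chemokine UMI against 330 CPM with none.

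Immediate early genes, which respond within minutes to many stimuli including tissue digestion, were examined beside the NF-kB list. None of the 13 tested was called, and 10 of them had a ratio above 1, as did 10 of the 16 below 50 CPM. Among the latter, Maff was at 23.0 against 10.3 CPM and above 1 in each library. The sum of all 29 genes was at 5156.3 against 4555.2 CPM, a ratio of 1.13 (1.11 to 1.15). The library ratios were 1.07, 1.01, 1.33 and 1.33. Fos was at 334 against 310 CPM and lay below the comparison fibroblasts in libraries 1 and 2. Jun was at 480 against 372 CPM. Heat shock genes, with 0 of 8 called, had a summed ratio of 1.19. In cells whose immediate early share lay below the median of the gate, the NF-kB ratio was 1.77 with 111 chemokine-producing and 2608 comparison cells, while Cebpd, which is on the NF-kB list, was at 1.08. The part of digestion in the chemokine signal itself was not tested.

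Cxcl1, a chemokine for neutrophils, stood at 219, 150, 152 and 270 CPM in the 4 libraries against 94.0, 45.6, 64.7 and 49.5 CPM. The sets did not overlap, and the ratio was 3.01 (2.73 to 3.33). It was seen in 35.8% of the chemokine-producing cells and 15.4% of the comparison cells, or 20.1% and 7.92% after thinning. Among 22 cytokine and acute-phase genes, 4 were tested and 3 were higher, beside 1.79% of all genes tested. Of the 3 that reached 50 CPM in the comparison fibroblasts, 2 were higher. Icam1 and Vcam1, which encode adhesion molecules that hold leukocytes, had ratios of 2.35 (2.03 to 2.71) and 1.66 (1.52 to 1.82). Csf1 was at 140 against 80.4 CPM, a ratio of 1.74 (1.55 to 1.95). Il33, an alarmin, had a ratio of 1.04.

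Vcam1 reached a ratio of only 1.02 in library 3 and 1.26 in library 2, and 1.49 without library 1. Icam1 had a ratio of 1.30 in library 2. Ptx3, which encodes a soluble pattern recognition protein, was at 49.8 CPM against 11.1 CPM in the comparison fibroblasts, and 1 cell held 63.5% of its UMIs. Il6 was at 6.50 against 3.01 CPM and was found in 7 cells (2.43%) against 1.18%. Saa3, an acute-phase gene, went the other way, with 2 UMIs in the chemokine-producing cells, or 0.867 CPM against 6.40 CPM.

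The other CC chemokine genes of the cluster on chromosome 11 were less abundant. Ccl11, which encodes eotaxin, was at 36.4 against 17.9 CPM, a ratio of 2.03 (1.60 to 2.55), and was above 1 in each library. Ccl8 was at 27.3 against 7.95 CPM, a ratio of 3.43, but its library ratios ran from 0.693 to 8.18. Ccl12 had no UMI in the chemokine-producing cells and 5 in the comparison cells. Both Ccl11 and Ccl8 lay below 50 CPM and were not tested. Of the chemokines with steady expression in fibroblasts, Cxcl12, which retains stem cells and lymphocytes, had a ratio of 0.971, and Cxcl14 a ratio of 0.799. The whole list of 23 other chemokines was at 749 against 562 CPM, a ratio of 1.33. Cxcl1 was the 1 call among its 4 tested genes, beside 1.79% of all genes tested. In cells whose immediate early share lay below the median of the gate, the ratio of the list was 0.988.

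Of the metallothioneins, small metal-binding proteins, Mt1 reached 50 CPM in both sets and Mt2 in the chemokine-producing cells alone, and both were higher. Mt1 stood at 752, 342, 375 and 316 CPM in the 4 libraries against 386, 175, 180 and 212 CPM. Library 1 was highest in both sets, so the ranges overlapped, while the ratio lay between 1.49 and 2.09 within libraries. Mt2 was at 97.0 against 43.3 CPM, a ratio of 2.24 (1.94 to 2.58). In cells with a low immediate early share, the ratio of Mt1 was 1.48. Of the glutathione and NRF2 genes, 1 of 13 was higher, Txnrd1, which encodes thioredoxin reductase, at a ratio of 1.58, and at 1.32 in cells thinned to 2000 UMIs. Of the integrated stress response genes, 1 of 9 was higher, Ddit3, which encodes the CHOP factor, at 1.52, at 1.39 without library 2 and at 1.18 in thinned cells. The 7 glucocorticoid response genes tested held no call, and Ifi204 was the 1 call among 12 interferon-stimulated genes, at 1.61, at 1.48 without library 2 and at 1.17 in thinned cells. These single calls, near the 1.5-fold limit, stand beside the 1.79% of all genes tested. Txnrd1, Ddit3 and Ifi204 reached 50 CPM in the chemokine-producing cells alone. Among genes that reached it in the comparison fibroblasts, 0 of 11 glutathione and NRF2 genes were higher. The same held for 0 of 7 integrated stress response genes and 0 of 9 interferon-stimulated genes.

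The highest ratios among the called genes belonged to Thbs1 and Tagln, which are on the list of activated fibroblast genes. Thbs1, which encodes the matricellular protein thrombospondin 1, stood at 177.5, 186, 161 and 83.5 CPM in the 4 libraries against 54.5, 36.5, 34.0 and 25.7 CPM. Every library of the chemokine-producing cells lay above every library of the comparison cells, and the ratio was 3.87 (3.44 to 4.35). Tagln, which encodes the actin-binding protein transgelin, was at 81.9 against 25 CPM, a ratio of 3.27 that ran from 1.88 in library 1 to 23.3 in library 3. Without library 1 its ratio was 5.19. Acta2, the smooth muscle actin gene, did not share this, at 30.3 against 28.8 CPM.

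Tnfrsf12a, the receptor for the cytokine TWEAK, was at 77.1 against 27.8 CPM, a ratio of 2.77 (2.35 to 3.26). Ret, a receptor tyrosine kinase gene, was at 66.3 against 26.0 CPM, and Col27a1, a fibrillar collagen gene, at 58.1 against 28.5 CPM. Timp1, an inhibitor of matrix proteases, had a ratio of 2.63, and 1 cell held 38.9% of its UMIs. In the cells with no Mfap4 or Osr1 UMI, its ratio was 1.57. Postn and Ccn2, the other called genes of activated fibroblasts, were lower at ratios of 0.549 and 0.455. The list of activated fibroblast genes thus held 2 higher and 2 lower calls among 7, beside 1.79% and 1.84% of all genes tested. Thbs1 and Tagln reached 50 CPM in the chemokine-producing cells alone, and none of the 5 genes of the list that reached it in the comparison fibroblasts was higher.

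**Figure D4:**
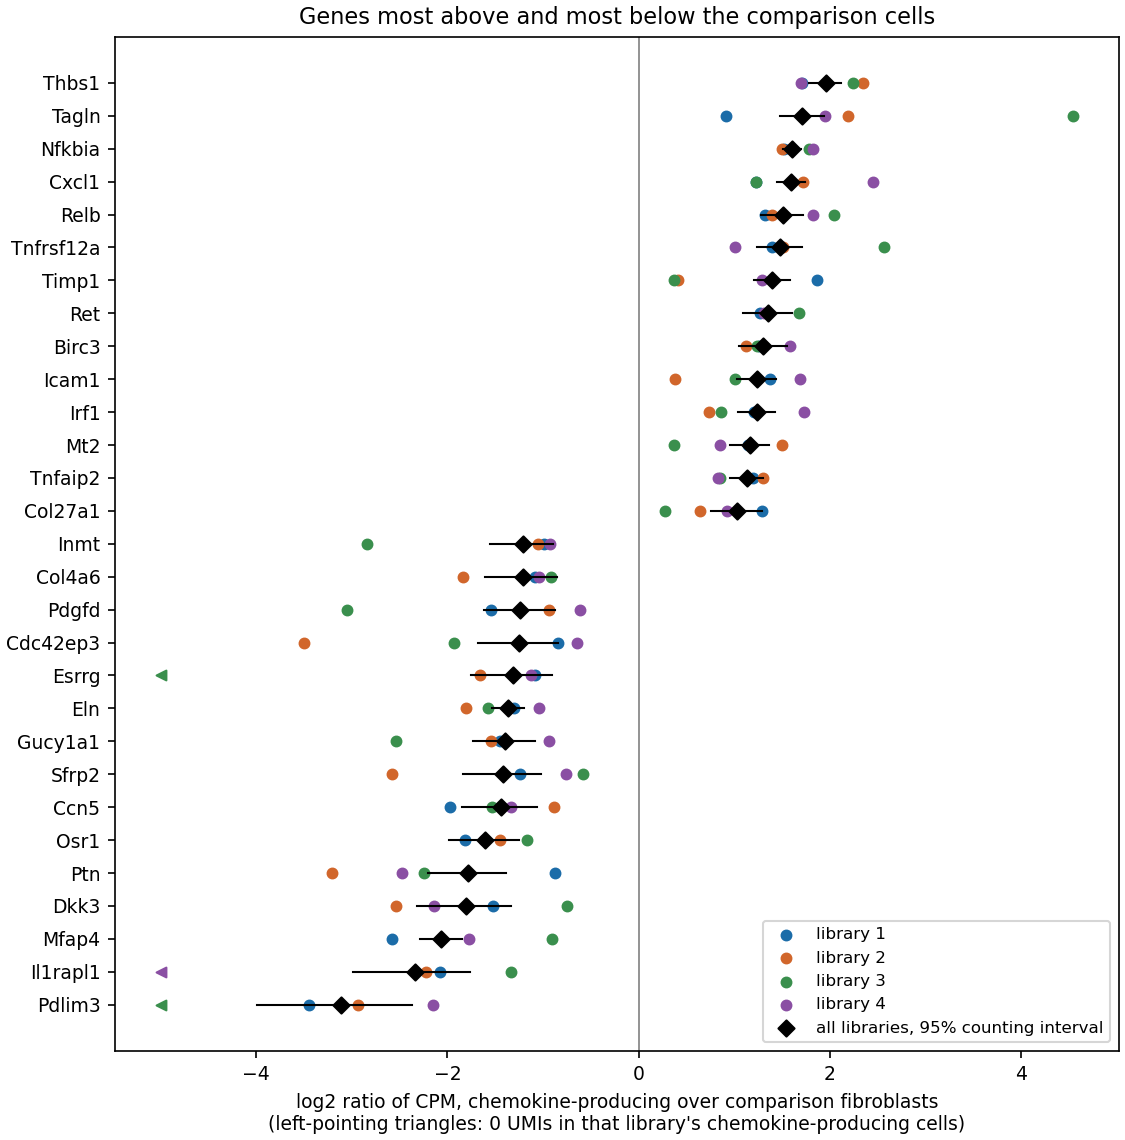
Log2 ratio of CPM in chemokine-producing over comparison fibroblasts (horizontal) for named genes with the highest and the lowest ratios among those called. Circles are libraries, triangles at the left edge mark libraries with 0 UMIs in the chemokine-producing cells, and diamonds with bars are the pooled ratio and its exact 95% counting interval. Thbs1 leads with a ratio of 3.87 and Pdlim3 is lowest with 0.115, and Tagln has the widest spread among the higher genes, from 1.88 to 23.3.

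The genes lower in the chemokine-producing fibroblasts included markers of a fibroblast kind that produces Mfap4 and Osr1. Mfap4, which encodes a protein of elastic microfibrils, stood at 51.5, 89.5, 134 and 101 CPM in the 4 libraries against 309, 376, 252 and 346 CPM. The sets did not overlap, and the ratio was 0.239 (0.205 to 0.277). Osr1, a transcription factor gene of connective tissue, was at 28.2 against 85.6 CPM, a ratio of 0.329 (0.253 to 0.420). Dkk3, a secreted relative of the WNT inhibitors, had a ratio of 0.286. All 3 tested genes of the list of 8 were lower, beside 1.84% of all genes tested, and its sum was at 159 against 550 CPM. Osr1 and Dkk3 reached 50 CPM in the comparison fibroblasts alone, and Mfap4 in both sets.

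Seen from the other side, 70 of 2333 gated cells with an Mfap4 UMI were chemokine-producing (3.00%, 2.35 to 3.78%), against 218 of 3435 cells without one (6.35%, 5.55 to 7.21%). The median depths of these cells were 6634 and 6618 UMIs. Mfap4 was at 330 CPM in cells with no chemokine UMI, 62.6 CPM with 1, 75.5 CPM with 2 and between 51.8 and 93.5 CPM in the 3 bins above. Cells just below the limit of 3 thus lay within the range of those above it in Mfap4, unlike in Nfkbia.

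Eln, which encodes elastin, stood at 154, 89.5, 98.1 and 125 CPM against 379, 313, 293 and 257 CPM, with no overlap. Its ratio was 0.389 (0.345 to 0.437), and 0.725 in cells with no Mfap4 or Osr1 UMI. Fbln1, which encodes fibulin 1, had a ratio of 0.596, and 0.715 in those cells. These were the 2 lower calls among 23 genes of fibrillar collagens and matrix, beside 1.84% of all genes tested, and the sum of that list had a ratio of 0.966. Fbn1, which encodes fibrillin 1, another protein of elastic fibres, was at 1.40 and was not called, and Loxl1, which encodes an elastin cross-linking enzyme, at 0.989. Col1a1, the main collagen of the interstitium, was at 464 against 502 CPM.

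Among the abundant secreted products, Mgp, which encodes matrix Gla protein, an inhibitor of calcification, was at 3189 against 5762.5 CPM. Its library ratios lay between 0.520 and 0.605. Apoe, which encodes apolipoprotein E, was at 1429.6 against 2953.9 CPM, a ratio of 0.484 that ran from 0.358 to 0.676. The growth factor genes Igf1, Bmp4 and Angpt1 had ratios of 0.659, 0.632 and 0.634 and were the 3 calls among 8, all lower, beside 1.84% of all genes tested. All 3 reached 50 CPM in both sets. Each lay near the limit: Igf1 was at 0.691 without library 1 and 0.681 without library 2, Bmp4 at 0.692 without library 2, and Angpt1 at 0.686 without library 1 and 0.682 without library 4. In cells with no Mfap4 or Osr1 UMI, Igf1 was at 0.758. In cells with a low immediate early share, Angpt1 was at 0.838. Bmp4 was at most at 0.6955 over the alternatives run.

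The lowest ratios belonged to Pdlim3, a gene of a cytoskeletal scaffold protein, at 0.115 (0.0629 to 0.194), and Il1rapl1, a synaptic receptor gene, at 0.197. Ptn, which encodes the growth factor pleiotrophin, was at 0.291, and Sfrp2, which encodes a WNT modulator, at 0.375. In Ptn, 1 cell held 45.3% of the UMIs of the chemokine-producing fibroblasts, and without library 1 its ratio was 0.150. Postn was at 0.280 without library 1 and at 1.02 in cells with no Mfap4 or Osr1 UMI. In those cells Ccn2 was at 0.941, Col4a6 at 0.863 and Sfrp2 at 0.657. The subset held 190 chemokine-producing and 2393 comparison cells. There 70 genes were higher, 44 of them also among the 67, and 49 were lower, 21 of them also among the 69. These counts are given without the number of genes tested in the subset.

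**Figure D5:**
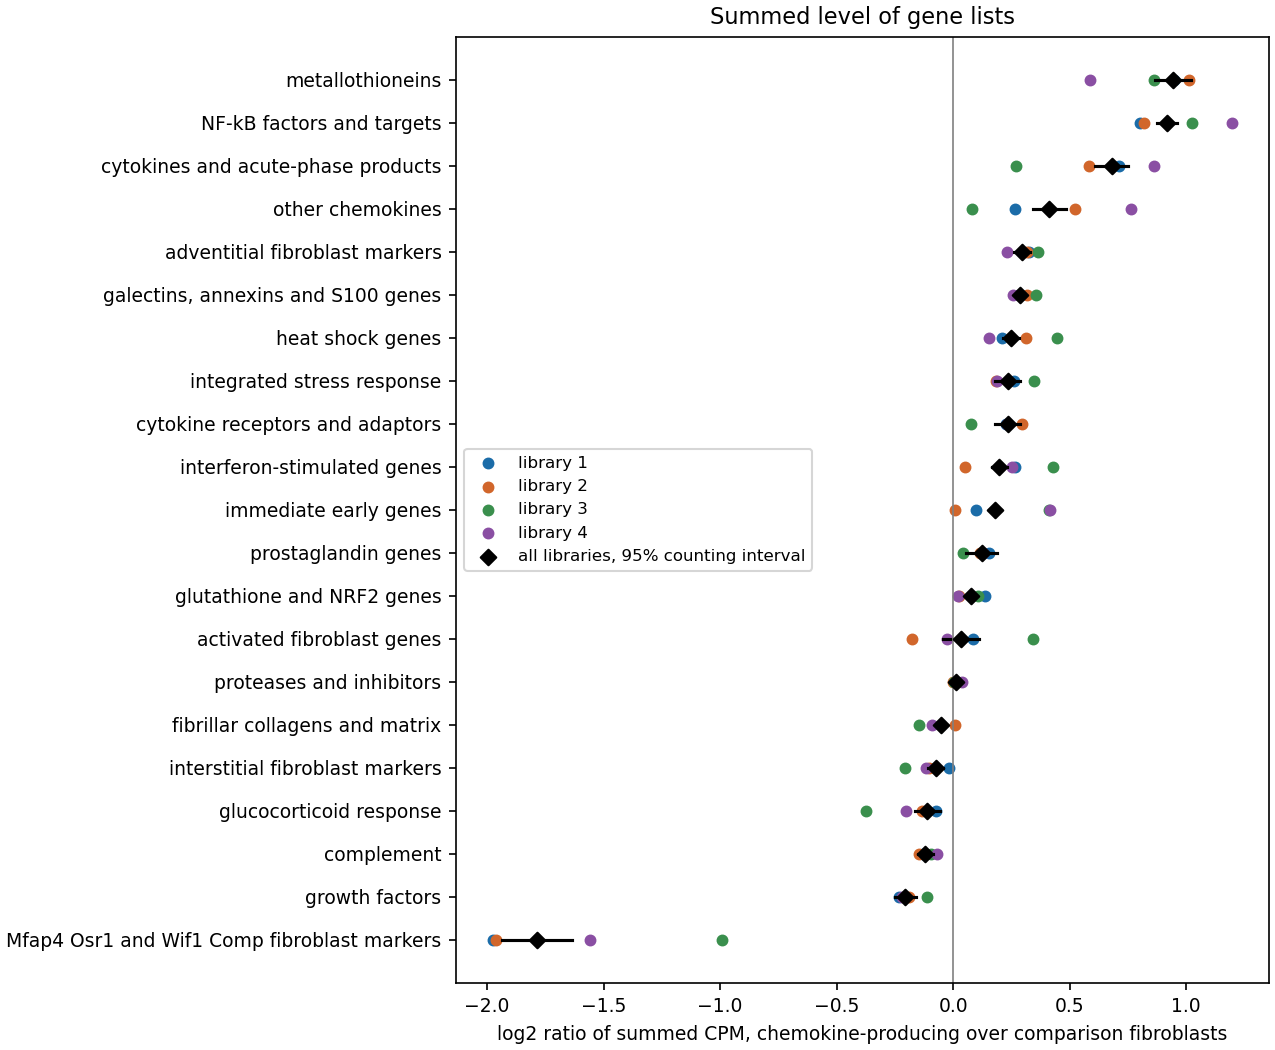
Log2 ratio of the summed CPM of each gene list in chemokine-producing over comparison fibroblasts, with circles for libraries and diamonds with bars for the pooled ratio and its exact 95% counting interval. Metallothioneins and NF-kB genes lie furthest to the right, at ratios of 1.93 and 1.89, and the Mfap4 and Osr1 list lies furthest to the left at 0.290.

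Markers of the main fibroblast types were present in both sets. Pi16, a marker of adventitial fibroblasts, was found in 84.7% of the chemokine-producing cells and 80.6% of the comparison cells, and in 63.5% and 62.8% after thinning. For Cd248, another adventitial marker, the shares were 54.2% and 40.1%, and 27.4% and 20.5% after thinning. The adventitial list had a summed ratio of 1.23 (1.20 to 1.26), with library ratios from 1.17 to 1.29. All 8 of its tested genes had a ratio above 1, as did 59.7% of all genes tested. The median ratio of the 8 was 1.39. Of the 8, 1 was called higher, Anxa3, beside 1.79% of all genes tested. Anxa3 was at 1.52, and at 1.48 without library 2. With depth made equal between the sets by weighting, the adventitial sum had a ratio of 1.08 and Anxa3 a ratio of 1.30. The interstitial list had a summed ratio of 0.949, with 1 of 9 tested genes lower, Inmt, beside 1.84% of all genes tested. Inmt reached 50 CPM in the comparison fibroblasts alone. Of the 8 genes of the list that reached it in the chemokine-producing cells, none was lower. General fibroblast markers held no call among 7 and had a ratio of 0.916. Receptors and adaptors for cytokines, among them Il1r1 and Tnfrsf1a, held no call among 8 and had a summed ratio of 1.18. The same was true of 3 prostaglandin genes at 1.09 and of 3 nuclear RNAs at 0.923. Galectins, annexins and S100 genes had a summed ratio of 1.22, with Anxa3 as the 1 call among 15, again beside 1.79% of all genes tested.

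Cells with Ccl2 alone and with Ccl7 alone differed in several genes. The NF-kB list was at 1903 CPM in the 69 cells with Ccl2 alone and 1902 CPM in the 122 with Ccl7 alone, and at 2383 CPM in the 97 with both. Thbs1 was at 260.5 CPM (217 to 310) with Ccl2 alone and 77.5 CPM (61.4 to 96.6) with Ccl7 alone. Tagln followed it, at 150 and 35.3 CPM. Cxcl1 went the other way, at 117 CPM (88.6 to 151) and 218 CPM (190 to 248). The list of pericyte and smooth muscle markers, which holds Tagln, was at 258 CPM (215 to 308) with Ccl2 alone and 76.5 CPM (60.5 to 95.5) with Ccl7 alone, and its part in the Thbs1 and Tagln values was not tested. Adventitial markers were at 2100 and 3842 CPM, and immediate early genes at 4379 and 5938 CPM. These subsets were formed by the same genes that chose the cells, and no difference between animals was tested in them. Their values were pooled over libraries, so recurrence was not examined, and the intervals do not cover spread between cells. Thbs1 was found in 85 of the 288 cells, and 1 cell held 13.9% of its UMIs.

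Markers of most other cell types were low in the chemokine-producing fibroblasts. The gate had removed cells with a UMI of Ptprc, Pecam1 or Cdh5 from both sets. Low leukocyte and endothelial counts were thus in part fixed by the choice of cells. The macrophage list was at 48.5 against 47.3 CPM, with no UMI of Csf1r, Fcgr1, Cd163 or Ccr2. Mesothelial markers were at 3.03 against 34.8 CPM, with none of Krt19, Krt8, Krt18, Lrrn4 or Muc16. Neutrophil markers were at 15.2 against 16.7 CPM, cardiomyocyte markers at 52.0 against 63.0 CPM, and adipocyte markers had no UMI. B cell markers were at 4.77 against 6.75 CPM, T and NK cell markers at 1.73 against 1.32 CPM, Schwann cell markers at 1.30 against 7.92 CPM and cell cycle genes at 77.5 against 90.6 CPM. The endothelial list had a summed ratio of 1.17. Its 1 call among 3 was Ly6c1 at 1.62, beside 1.79% of all genes tested. With a limit of 5 chemokine UMIs per 10000, Ly6c1 was at 1.30. The pericyte and smooth muscle markers had a summed ratio of 1.11, which ran from 0.741 to 2.09 over the libraries and was 1.57 without library 1, and the 1 gene tested was Tagln. The erythroid list was at 499 against 45.9 CPM, and 1 cell of library 2 held 97.5% of the haemoglobin UMIs.

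Ccr2, the receptor of both chemokines, had no UMI in the 288 cells, which allows up to 1.04% of cells with a Ccr2 UMI at this depth and sets no limit on cells that use the gene. It was at 91.3 CPM in the macrophage gate. The tdTomato reporter was found in 33 of the chemokine-producing cells (11.5%) against 8.44% of the comparison fibroblasts. After thinning the shares were 3.82% and 2.82%. Its ratio of CPM ran from 0.458 to 1.77 over the libraries and was below 1 in libraries 1 and 4. The reporter was at 14.1 CPM in the fibroblast gate, 20.9 CPM in endothelial cells and 83.5 CPM in macrophages.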

How the data were processed

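Droplet RNA libraries of cardiac interstitial cells from 4 samples, 2 control and 2 stroke, were analysed from 1 joined gene by cell table. Its values are counts of UMIs, deposited by the authors. The submitters' processing notes name Cell Ranger 7.1.0 and build mm10, and the release of the gene annotation was not given in the sources used here. From these counts the cell filter, the fibroblast gate and the 2 sets of cells were computed with Python 3.11.15, numpy 2.4.6 and scipy 1.17.1. The libraries hold 31955157 to 45834980 UMIs. CPM is the summed UMIs of a gene over the summed UMIs of a set of cells, scaled to 1000000. The genes of the rule and mitochondrial genes were left out of the test. Cells are not replicates and the joined table counts as 1 sample, so no p-value, SD or standard error was computed. Intervals are exact Poisson or Clopper-Pearson intervals at 95%, and a ratio's interval is the exact conditional binomial one. Amplified reads were collapsed to UMIs, and intervals cover counting error only. Stroke and control were to be compared by a permutation test and a count model over samples, which were not run because no barcode is tied to a sample.

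Doublets were kept in the main values, as the rule has no step for them. Scrublet in scanpy 1.11.5 scored each library, its automatic limit in library 3 marked no cell, and the median limit of the other libraries was used there. The members and the 36 gene lists were chosen with earlier results of these data known. The lists name 464 genes, of which 463 matched a feature, and Cxcl11 did not. Genes were named by a fixed rule: the 15 highest and 15 lowest ratios among called genes, the markers proposed for these cells, up to 4 called members of each list, up to 2 members of a list without calls, defining markers of other cell types and the other CC chemokines. Some genes that the rule names are not reported here. Further genes named, such as Traf3, Tnfaip3, Ptx3, Il6, Saa3, Acta2, Fbn1, Loxl1 and Col1a1, were chosen after their values were seen. The calculation was tested on simulated data. In all, 24 alternatives were run, 3 of them added after the data were seen: cells with no Mfap4 or Osr1 UMI, cells with a low immediate early share, and leaving out a pair of cells with mast cell or haemoglobin transcripts.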

Additional observations from a re-analysis of the deposited data

How the results depend on the processing

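The share of chemokine-producing cells in the gate was 6.59% with a limit of 2 UMIs, 3.38% with 5 UMIs and 4.11% with 5 UMIs per 10000. It ranged from 4.71 to 5.12% when each library was left out in turn. Higher and lower genes numbered 15 and 22 at 2-fold, 132 and 172 with a floor of 20 CPM, and 13 and 11 with a floor of 200 CPM. The floor also changes how many genes are tested, so these counts do not show how the share called moved. Leaving out each library gave 64 to 89 higher and 65 to 82 lower genes. The other alternatives stayed within 1.5 times of the main counts. With the comparison cells standardised to the same depth, 46 genes were higher and 57 lower. The summed NF-kB ratio stayed between 1.77 and 2.07 over the alternatives run. The ratio of the erythroid markers, 10.9, turned to 0.273 without doublets, 0.162 without cells with macrophage marker UMIs, 0.174 without library 2 and 0.276 without the cells rich in mast cell or haemoglobin transcripts. Postn turned to 1.02 in cells with no Mfap4 or Osr1 UMI. The cause of these changes was not tested, except that 1 cell held 97.5% of the haemoglobin UMIs. No paired analysis was possible because no barcode is tied to a sample, so the replicate numbers of the labels apply to no cell. The 26 cells of library 3 limit what its ratios can show.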

Other observations

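Several further genes met the size rule, and those named here were chosen after their values were seen. Ccnd1, which encodes cyclin D1, was at 235 against 123 CPM, a ratio of 1.91 (1.75 to 2.09), with library ratios from 1.63 to 2.09. Loxl2, which encodes a collagen cross-linking enzyme, was at 203 against 111 CPM, with library ratios from 1.69 to 2.03. Casp4, which encodes an inflammatory caspase, had a ratio of 1.93 and Ptgir, the prostacyclin receptor gene, a ratio of 1.74. Srm, which encodes spermidine synthase, was at 73.2 against 41.6 CPM, with library ratios from 1.64 to 2.01, and Ddx21, an RNA helicase gene, had a ratio of 1.67, and of 1.32 in cells thinned to 2000 UMIs.

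Among the lower genes, Gucy1a1 and Gucy1b1 encode the 2 subunits of the nitric oxide receptor guanylate cyclase, and their ratios were 0.378 (0.301 to 0.471) and 0.651 (0.517 to 0.811). Without library 1, Gucy1b1 was at 0.748. Pdgfd, a growth factor gene, was at 27.3 against 64.4 CPM. Nox4, an NADPH oxidase gene, had a ratio of 0.614, and of 0.862 in cells with no Mfap4 or Osr1 UMI.

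The mast cell protease genes Mcpt4 and Cma1 had 314 UMIs in the chemokine-producing cells, all in 1 cell of library 1, which held 3 Ccl2 and 2 Ccl7 UMIs. The cell with 97.5% of the haemoglobin UMIs held 19 Ccl2 UMIs and no Ccl7 UMI.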
